A study of Bos taurus with 11 samples.

Results

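The E2F factors and the retinoblastoma family are the switch that links growth signals to the start of DNA synthesis. In human and mouse cells the pocket proteins RB1, RBL1 (p107) and RBL2 (p130) hold E2F factors in a repressed state during quiescence and early G1, and cyclin-dependent kinases release them by phosphorylation. Freed activator E2Fs then turn on genes of nucleotide synthesis and DNA replication, while other members of the same family keep those genes off in resting cells or shut them down later in the cycle. Epithelia that renew themselves, such as the wall of the rumen, depend on this switch to balance division against differentiation, and butyrate is known as an agent that holds many cultured cells in G1.

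The chromatin at these genes was followed through 10 gene symbols: the activators E2F1, E2F2 and E2F3, the repressors E2F4 and E2F5, the atypical factors E2F7 and E2F8, and the pocket proteins RB1, RBL1 and RBL2. They were taken by name from the gene annotation of the deposited interval table and not by their signal, although earlier results of these data were known. Of the 10 symbols, 9 had listed intervals and a gene start, among 23869 symbols with a start in the whole table, and 239 of 371758 intervals listed at least 1 of them. E2F7 was listed beside no interval and is not analysed here. For each of the 9 genes, all listings (from 6 at E2F8 to 95 at RBL1) pointed to the same start.

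Rumen epithelial primary cells came from 1 Holstein bull calf of 2 weeks that had been fed milk replacer only, and they were cultured either as controls or with 5 mM butyrate for 24 h. Chromatin immunoprecipitation with sequencing (ChIP-seq) was done for H3K4me3 (a mark of gene starts), H3K27ac (active starts and enhancers), H3K4me1 (enhancers and the flanks of starts), H3K27me3 (Polycomb repression) and CTCF, a protein that binds chromatin boundaries. Each of the 5 targets had 1 control and 1 butyrate library, and 1 input library, for which the table has no intervals, completed the 11 samples. No library had a replicate, so no difference below could be tested and every ratio compares a pair of libraries.

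The unit of every value is the tag density of a called interval. The average signal is its mean over bins of about 32 bp, and the peak signal is its value at the summit. Promoters were windows reaching 2 kb up- and downstream of each start, and a promoter was given the highest average signal among the intervals touching it. A ratio is the log2 of butyrate over control. The libraries held between 26824 and 54071 intervals. At the promoters marked in both libraries, the median H3K27ac ratio was -0.78 and the median H3K4me3 ratio was -0.01. The median H3K27ac signal over marked promoters was 46.6 in control and 29.1 with butyrate, so each H3K27ac ratio is also given relative to the median promoter. Shares of marked promoters below a value are taken within each library, over 11299 promoters with H3K27ac in control and 8323 with butyrate. Shares from the control and butyrate libraries are therefore not places in a common order. How the signal was scaled between libraries is not stated, and a shift of the whole library cannot be told apart from a shift in scaling. Among markers of the labelled cell type, 15 of 20 epithelial promoters carried H3K4me3 in control and 18 of 20 with butyrate, KRT5, KRT8 and EPCAM in both, TP63 and CDH1 in neither. Over all promoters, 13550 of 23869 carried it in control and 14777 with butyrate. For fibroblasts these counts were 7 and 6 of 10, for smooth muscle 4 and 6 of 7, for endothelium 1 and 3 of 8 and for immune cells 0 and 2 of 12. H3K27ac was called at 12 and 10 of 20 epithelial promoters, EPCAM in neither library, against 11299 and 8323 of all promoters. It was called at 3 and 2 of 10 fibroblast and 4 and 4 of 7 smooth muscle promoters. For endothelium it was 0 and 1 of 8 and for immune cells 2 and 2 of 12. The part of such cells in the results was not tested.

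Most promoters of the family carried the marks of an active start. H3K4me3 was called at the same members with and without butyrate, and H3K27ac at all of these but E2F8. H3K4me3 was present in both libraries at 8 of 9 members, E2F2 being the exception, while 56.5% of all promoters were marked in both. H3K27ac was present in the control at the same 8 members, against 47.3% of all promoters, and with butyrate at 7 of them. The H3K4me3 interval held a CpG island in the control at 8 of these 8 members, as it did at 92.2% of all promoters with H3K4me3. H3K27me3 reached only 1 of 9 promoters in either library (RBL2), against 36.1% of all promoters. Each value of the family at its promoters is drawn in the plot of interval signal by gene and mark.

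**Figure D1:**
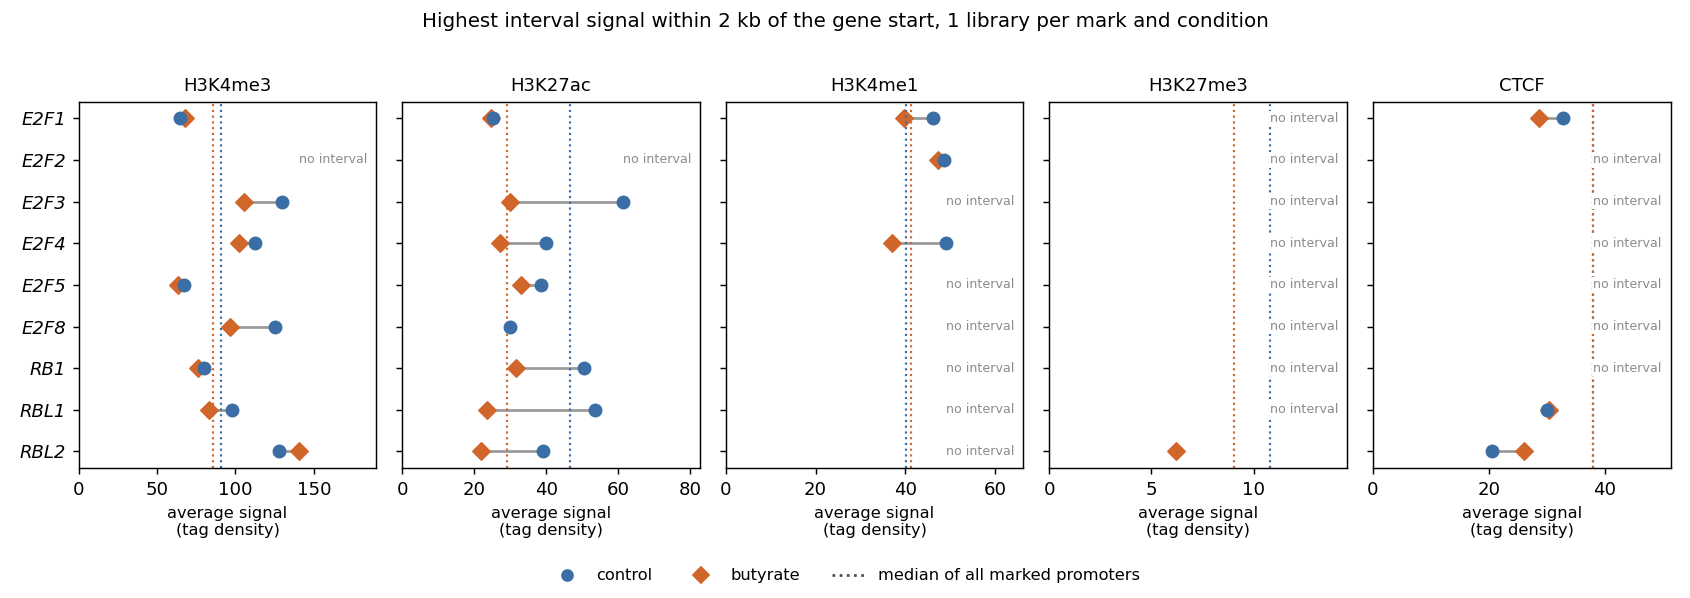
Average signal (tag density, horizontal axis) of the highest interval within 2 kb of each gene start, for 9 genes (rows) and 5 targets (panels); circles are the control library, diamonds the butyrate library, and dotted lines the medians of all marked promoters in each library. H3K27ac lies to the left of its control value at all 7 genes marked in both libraries, with E2F1 nearly level in signal (25.2 and 24.8), while the H3K4me3 pairs stay close together.

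The activators differed from each other in every mark of an active start. E2F1, the factor most closely tied to both S-phase entry and apoptosis, starts on the minus strand of chromosome 13 at position 63714008 of the build UMD3.1, the build of all coordinates here. Its promoter H3K27ac was 25.2 in the control and 24.8 with butyrate, a ratio of -0.02. This was the flattest H3K27ac ratio of the family and 0.76 above the median promoter, with 90.3% of all promoters marked in both libraries lower. The signal was low to begin with, since only 10.2% of marked promoters were below it in the control, whereas 29.3% of those marked with butyrate were below it. A ratio needs a call in both libraries, which limits how low it can be at so weak a promoter. The H3K27ac interval also widened within the promoter, from 620 to 870 bp, and its summit lay 728 bp downstream of the start in the control and 968 bp with butyrate.

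H3K4me3 at E2F1 lay in separate blocks on either side of the start. The stronger, downstream block had an average signal of 64.5 in the control and 67.6 with butyrate, a ratio of 0.07, and its peak signal was 135 and 129. The weaker block just upstream had 51.8 in the control and 34.5 with butyrate, a ratio of -0.59, and its peak signal was 90 and 50. The promoter ratio follows the stronger block, whose small difference has opposite signs by average and by peak signal, and leaves out the lower signal upstream. H3K4me1 reached the promoter with 46.2 in the control and 39.8 with butyrate (ratio -0.22), downstream of the start. A CTCF interval had its summit 1160 bp upstream in both libraries, with 32.7 and 28.6. The intervals downstream of the start were also listed for NECAB3, a neighbouring gene, and cannot be assigned to E2F1 alone.

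E2F2, an activator with marked roles in blood cells of the mouse, was the one member without the marks of an active start. No H3K4me3, H3K27ac, H3K27me3 or CTCF interval reached the promoter window around its start on chromosome 2 (position 129927459, plus strand) in either library. H3K4me1 was there with 48.6 in the control and 47.3 with butyrate, a ratio of -0.04, and lay over the start itself (44.7 and 44.8) as well as upstream. That H3K4me1 level was above that of 74.1% of promoters with H3K4me1 in the control and 68.8% with butyrate. The nearest H3K4me3 interval with a CpG island had its summit 6291 bp upstream in the control, with 64.3, and 6307 bp upstream with butyrate, with 59.5. A smaller H3K4me3 interval 4131 bp upstream had 19.6 and 21.9. Both were also listed for LOC104971364, a provisional gene that starts 3105 bp downstream on the opposite strand. A broad H3K27me3 interval beyond the gene, with its summit about 28285 bp from the start, had 6.29 in the control and 8.15 with butyrate.

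E2F3, the activator whose loss most strongly slows the division of mouse fibroblasts, had the strongest promoter of the family in H3K27ac in the control and a ratio past 2-fold. It starts on chromosome 23 at position 37343620 on the minus strand. H3K27ac was 61.3 in the control and 30.0 with butyrate, a ratio of -1.03 as deposited and -0.25 relative to the median promoter. Its peak signal was 92 and 41, and the covered part of the promoter went from 2451 to 1234 bp. An upstream interval of 29.5 in the control was overlapped by none in the butyrate library.

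H3K4me3 at the E2F3 start was 129 in the control and 106 with butyrate (ratio -0.29), with an identical peak signal of 268 in both. It was above 92.4% of the promoters with H3K4me3 in the control and above 76.5% of those with butyrate. A further block of H3K4me3 lay inside the gene with its summit at 2852 bp in the control, and in human and mouse a shorter E2F3 isoform is transcribed from a start within the gene. This block had 95.3 in the control and 82.6 with butyrate (ratio -0.21). The H3K27ac interval over it had 52.3 and 21.5, a ratio of -1.29, which was the lowest of all H3K27ac ratios of E2F3. A CTCF interval at its downstream edge (summit 3172 bp in the control) had 32.8 and 30.4.

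The repressors E2F4 and E2F5 had H3K27ac ratios closer to 0 than the activator E2F3 by average signal, but not by extent at E2F5, where 37.8% of the control length in the promoter was covered with butyrate against 50.3% at E2F3. The activator E2F1, at -0.02, was closer to 0 than either repressor. E2F4, the most abundant E2F of many resting cells, starts at position 34947842 of chromosome 18 on the plus strand, with the start of EXOC3L1 1792 bp upstream on the opposite strand. Its H3K27ac was 39.9 in the control and 27.2 with butyrate, a ratio of -0.55 as deposited and 0.22 relative to the median promoter. The interval grew from 1459 to 3605 bp while its peak signal went from 78 to 48, so the mark was flatter and longer. H3K4me3 was 113 and 102 (ratio -0.14), with a peak signal of 267 and 268. H3K4me1 downstream of the start was 49.1 in the control and 37.1 with butyrate (ratio -0.40), and its covered length within the promoter went from 1213 to 257 bp. The same intervals were listed for KIAA0895L, ELMO3 and MIR328, so they belong to a dense cluster of genes.

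E2F5, a repressor that binds mainly RBL2 in human and mouse cells, starts on chromosome 14 at position 79796961 on the minus strand. H3K27ac was 38.6 in the control and 33.1 with butyrate, a ratio of -0.22 as deposited and 0.55 relative to the median promoter, and 82.4% of promoters had a lower ratio. That ratio rests on the narrow summit of the butyrate library, because 1 interval of 1758 bp in the control was replaced by intervals of 356 bp (33.1) and 308 bp (18.9). By peak signal, which was 81 and 45, the E2F5 ratio was -0.85. H3K4me3 was 66.9 and 63.5 (ratio -0.07), among the lower values of the family. The promoter intervals were also listed for LRRCC1, a centrosomal gene.

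E2F8, an atypical factor that binds DNA without a partner and represses E2F1 and other targets late in S phase, was the only member whose promoter H3K27ac was called in the control alone. Of the 8 members with H3K27ac in the control this was 1, while 30.4% of all such promoters were in the control only. The E2F8 interval was small, 351 bp with an average signal of 30.1 and a peak signal of 38, at position 25948465 of chromosome 29 on the plus strand. The median control signal of all control-only promoters was 33.8, and that of promoters marked in both libraries was 52.6, so E2F8 lay at the weak side of either group. The absence of a call in the butyrate library does not give a level there.

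H3K4me3 at E2F8 was strong, and its summary depended on how the promoter was read. The interval over the start had 125 in the control, and a small upstream interval had 34.5. With butyrate a single interval of 3378 bp covered both and 2 CpG islands, with 96.3. The highest interval thus gave the lowest H3K4me3 ratio of the family, -0.38, with 8.52% of all promoters lower. The mean over the intervals in the promoter gave 0.27, in the opposite direction. The peak signal was 295 and 270, and the covered length was 2778 and 3353 bp. H3K27me3 intervals lay on both sides of the gene in the control only, at 11633 bp upstream (7.67) and 29519 bp downstream (4.13). No H3K4me1 or CTCF interval was listed for E2F8 in either library.

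Among the pocket proteins, RB1, the founding tumour suppressor of the family, starts at position 18196453 of chromosome 12 on the plus strand and shares its promoter with LOC101903855, which starts 263 bp upstream on the opposite strand. Its H3K27ac was 50.6 in the control and 31.6 with butyrate, a ratio of -0.68 as deposited and 0.10 relative to the median promoter. RB1 was above 57.8% of the promoters marked in the control and above 58.8% of the smaller set marked with butyrate. The peak signal, 120 and 44, gave a ratio of -1.45, further from 0 than the average signal over the interval. H3K4me3 was 79.7 and 76.4 (ratio -0.06).

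RBL1, which encodes p107, had the lowest H3K27ac ratio of the family. It starts at position 66730589 of chromosome 13 on the minus strand, with LOC101905157 starting 175 bp upstream on the opposite strand. H3K27ac was 53.4 in the control and 23.6 with butyrate, a ratio of -1.18 as deposited and -0.40 relative to the median promoter. In the control 62.7% of marked promoters were below RBL1 and with butyrate 23.4% were. A control interval of 2831 bp gave way to a 327 bp interval at the start and a 333 bp interval further down, and the peak signal was 111 and 28. H3K4me3 was 97.5 and 83.4 (ratio -0.23), while its peak signal was 241 and 254. A narrow CTCF interval with its summit 29 bp from the start had 30 in the control and 30.4 with butyrate (ratio 0.02). MROH8 was listed for the same intervals.

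RBL2, which encodes p130, the pocket protein that holds E2F4 in resting human and mouse cells, starts at position 21879671 of chromosome 18 on the plus strand. It had the highest H3K4me3 of the family with butyrate. Its H3K4me3 was 128 in the control and 141 with butyrate, a ratio of 0.14, its peak signal was 293 and 328, and its interval was narrower, 2012 and 1418 bp. The promoter stood above 91.6% of promoters with H3K4me3 in the control and above 96.5% with butyrate. H3K27ac moved the other way, with 39.2 in the control and 21.9 with butyrate, a ratio of -0.84 as deposited and -0.06 relative to the median promoter. That small relative difference turned to 0.04 with a scaling on the strongest promoters.

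CTCF at the RBL2 start was 20.5 in the control and 26 with butyrate, a ratio of 0.34. Of the CTCF promoters in the control 1.94% were lower, and of those with butyrate 15.6% were. H3K27me3 upstream of RBL2 was near the edge of the promoter window. The butyrate interval, which ran from 5071 to 1872 bp upstream with an average signal of 6.20, reached the window by 128 bp, and the control interval, from 6871 to 2472 bp upstream with 5.80, did not. The state "butyrate only" of this promoter is therefore a matter of where an interval ended, and with a window of 5 kb RBL2 was marked in both libraries with a ratio of 0.10.

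**Figure D2:**
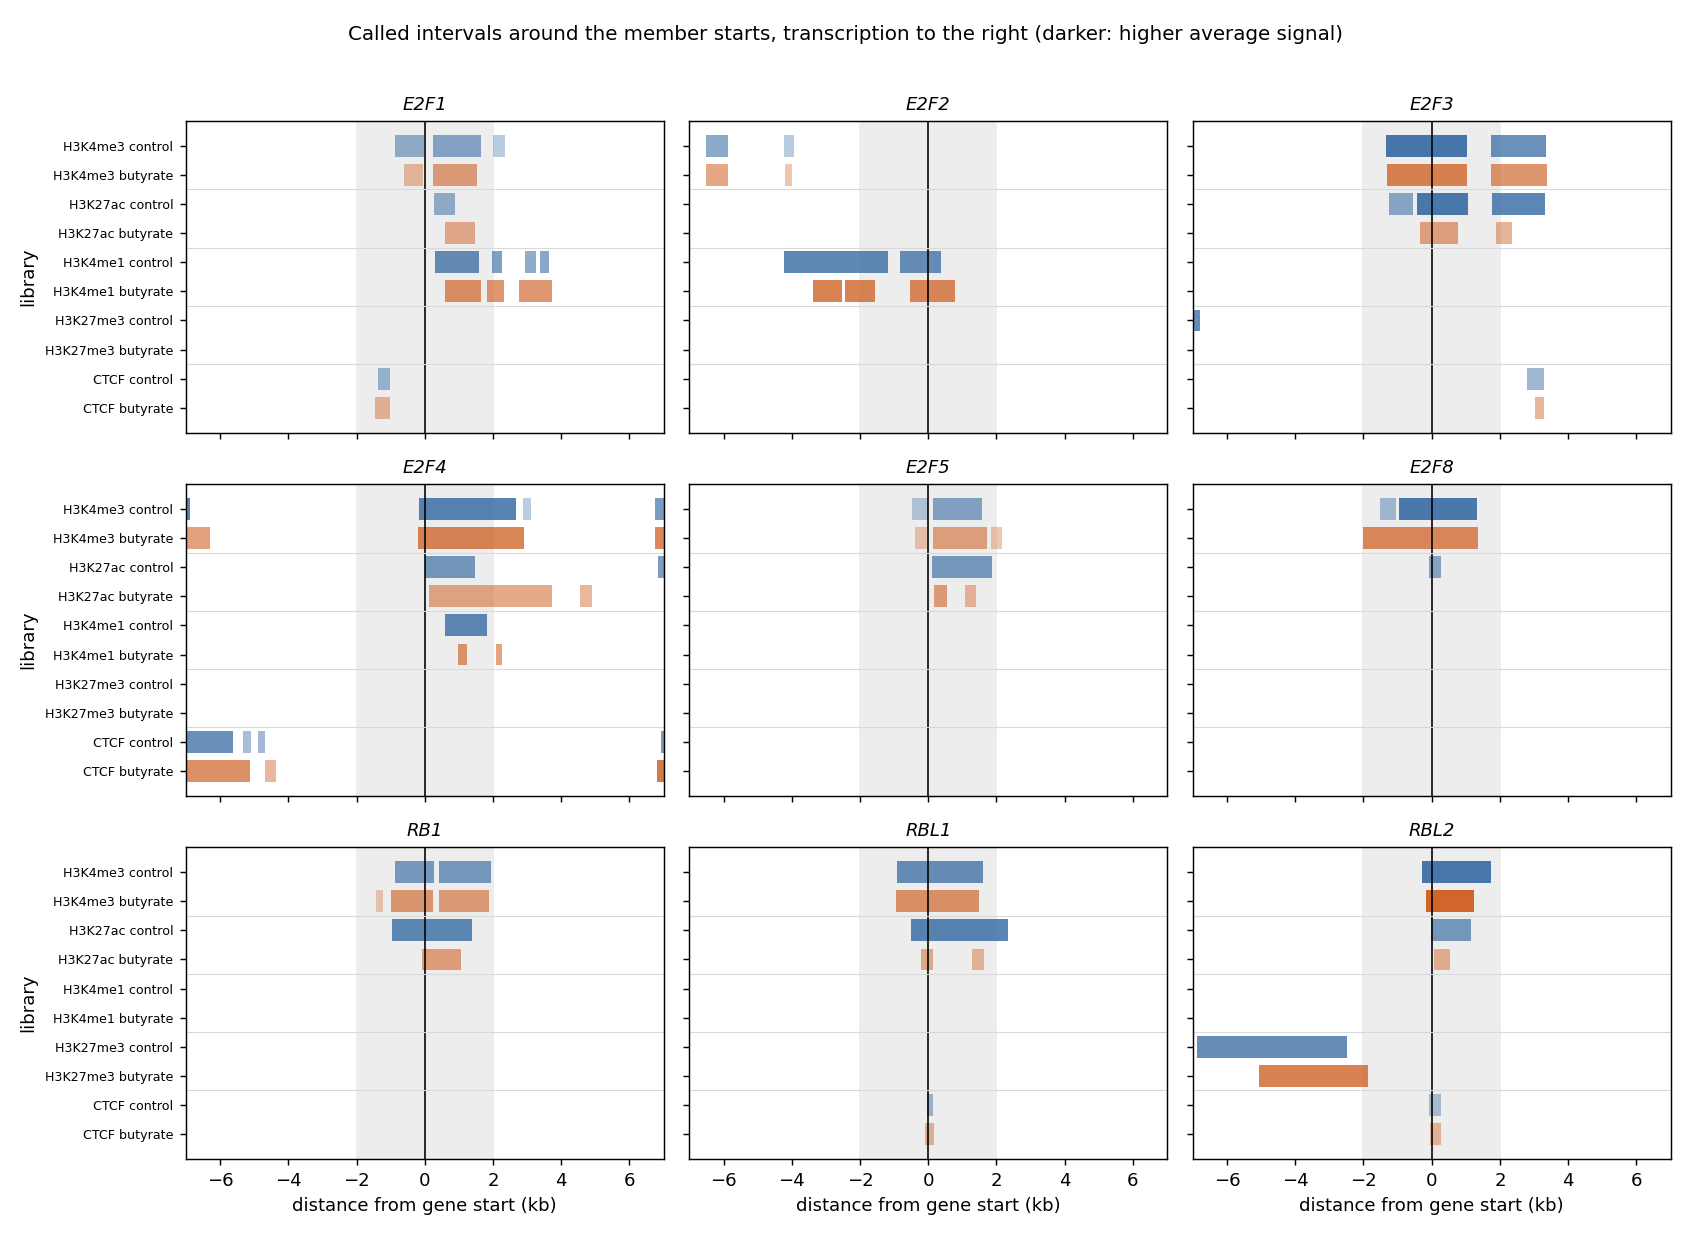
Called intervals of each library (rows, control above butyrate for each target) within 7 kb of the 9 starts, drawn by distance from the start in kb with transcription to the right; darker bars have a higher average signal and the grey band is the promoter. H3K27ac bars are shorter with butyrate at E2F3, E2F5, RB1, RBL1 and RBL2 and longer at E2F1 and E2F4, and within the grey band E2F2 has H3K4me1 alone.

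Read across the family, H3K27ac was lower with butyrate at all 7 promoters marked in both libraries as deposited, with a median ratio of -0.68, and the median of all such promoters was -0.78. By peak signal the E2F1 ratio was 0.08 instead. H3K27ac was at least 2-fold lower at 2 of 7 members (E2F3 and RBL1), against 33.7% of all promoters. Relative to the median promoter, 0 of 7 members were at least 2-fold lower, against 1.61% of all promoters, and 0 of 7 were at least 2-fold higher, against 4.58%. On that relative scale E2F1, E2F4, E2F5 and RB1 were above the median promoter and E2F3, RBL1 and RBL2 below it. The covered length of H3K27ac in the promoter was smaller with butyrate at 5 of 7 members, while it was smaller at 90.9% of all promoters. In the plot of promoter ratios the H3K27ac values of the family run from RBL1, with 22.1% of all promoters lower, to E2F1, with 90.3% lower.

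The range of called H3K27ac levels over the members was narrower with butyrate, where the median marked promoter was also lower (29.1 against 46.6 in the control). In the control the 8 marked members ran from 25.2 at E2F1 through a median of 39.5 to 61.3 at E2F3, and with butyrate the 7 marked members ran from 21.9 at RBL2 through 27.2 to 33.1 at E2F5. E2F8 had no call with butyrate, and a signal too weak to be called has no value, so the low end of the range is cut off. The members with the highest control values (E2F3, RBL1 and RB1), picked here by those values, had 30.0, 23.6 and 31.6 with butyrate. Strong promoters of the whole library were lower too, with a median ratio of -0.88 over the top 10% by mean signal and -0.78 over all. The range over all promoters was not compared. With 1 library each, the spread that separates neighbours in the order of members is not known.

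**Figure D3:**
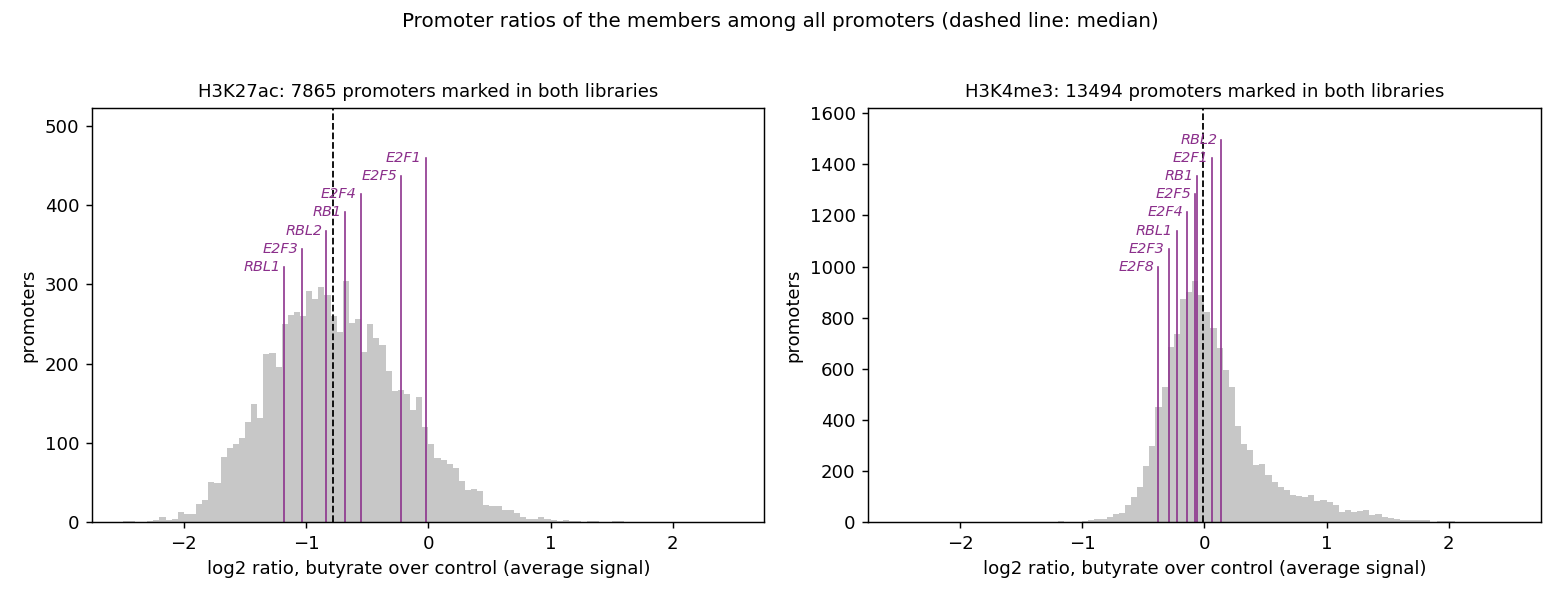
Distribution of promoter log2 ratios (butyrate over control, horizontal axis; number of promoters, vertical axis) for H3K27ac (7865 promoters) and H3K4me3 (13494 promoters) marked in both libraries, with the family members as vertical lines and the median as a dashed line. For H3K27ac the members run from -1.18 (RBL1) to -0.02 (E2F1) around a median of -0.78, and for H3K4me3 from -0.38 (E2F8) to 0.14 (RBL2) around -0.01.

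For H3K4me3, 0 of 8 members were at least 2-fold higher, against 3.94% of all promoters marked in both libraries, and 0 of 8 were at least 2-fold lower, against 0.0963%. H3K4me3 was lower by any amount at 6 of 8 members (all but E2F1 and RBL2), against 51.6% of all promoters, with a median ratio of -0.11. By peak signal E2F3 was level, E2F4 and RBL1 were at 0.01 and 0.08 and E2F1 was at -0.07, so the direction of these small differences depends on the measure. In the control 5 of 8 members were above the median marked promoter and with butyrate 4 of 8 were. H3K4me1 reached 3 of 9 promoters (E2F1, E2F2 and E2F4), against 35.4% of all promoters. H3K4me1 was present with butyrate at each of these 3, so that 0 of 3 were in the control only, whereas 55.8% of all promoters with H3K4me1 in the control were. CTCF reached 3 of 9 promoters (E2F1, RBL1 and RBL2), against 29.9%, and all 3 were below the median CTCF promoter of either library.

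Within the gene bodies, single-library H3K27ac was found at E2F3, E2F4, E2F5, RB1 and the span listed for RBL1. No H3K27ac interval was called in the body of E2F3 in the control, and 4 were called with butyrate, with summits at 9066, 17220, 23076 and 29188 bp from the start and average signals of 18.7, 18.9, 25.6 and 17.9. The strongest of them overlapped an H3K4me1 interval (34.9, summit at 22948 bp) that was also called with butyrate alone. With a stricter minimum, the 25% quantile of peak signal in each library, 1 of the 4 was left, and likewise with equal numbers of intervals in the 2 libraries. E2F4 and E2F5 had 1 such H3K27ac interval each, at 4766 bp with 19.7 and at 28161 bp with 26.4, of which that of E2F4 was not left under either of these settings. At least 1 butyrate-only H3K27ac interval in the gene body was found at 4 of 9 members (E2F3, E2F4, E2F5 and RBL1), against 19.8% of all genes with a start, and at 3 with the RBL1 body ended at the start of SOGA1, described below. E2F1, E2F2, E2F8 and RBL2 had no H3K27ac interval in their bodies in either library.

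RB1 had control-only intervals instead. Its body had 5 H3K27ac intervals covering 3792 bp in the control and 1 covering 1024 bp with butyrate. The interval that was kept had its H3K27ac summit at 11835 bp from the start in the control and held no CpG island. There H3K4me3 was 49.9 in the control and 86.5 with butyrate, a ratio of 0.79, and its peak signal was 94 and 159. H3K27ac at the same place was 42.6 and 35.5 (ratio -0.26), and H3K4me1 was called in the control only (42.7). The median ratio of shared H3K4me3 intervals in gene bodies was 0.11 and that of H3K27ac was -0.33, so this element of RB1 was above both medians.

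The control-only H3K27ac of RB1 lay far downstream, at the start of another gene. LPAR6, a lysophosphatidic acid receptor named here after its values were seen, starts inside RB1 at 87553 bp on the opposite strand. The 4 control-only intervals lay between 84580 and 87710 bp from the RB1 start, with average signals from 14.8 to 19.6 and peak signals from 16 to 24. None of the 4 reached the 25% quantile of peak signal, so with that minimum RB1 had 0 control-only intervals. H3K4me3 over the same stretch was 70.2 in the control and 37 with butyrate, a ratio of -0.92, with a peak signal of 152 and 66. Inside a single gene, H3K4me3 was thus higher with butyrate at the internal element and lower at the LPAR6 start. Control-only H3K27ac intervals in the body were found at 2 of 9 members (RB1 and RBL1), against 14.9% of all genes with a start, and at 1 (RB1) with the RBL1 body ended at the SOGA1 start.

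**Figure D4:**
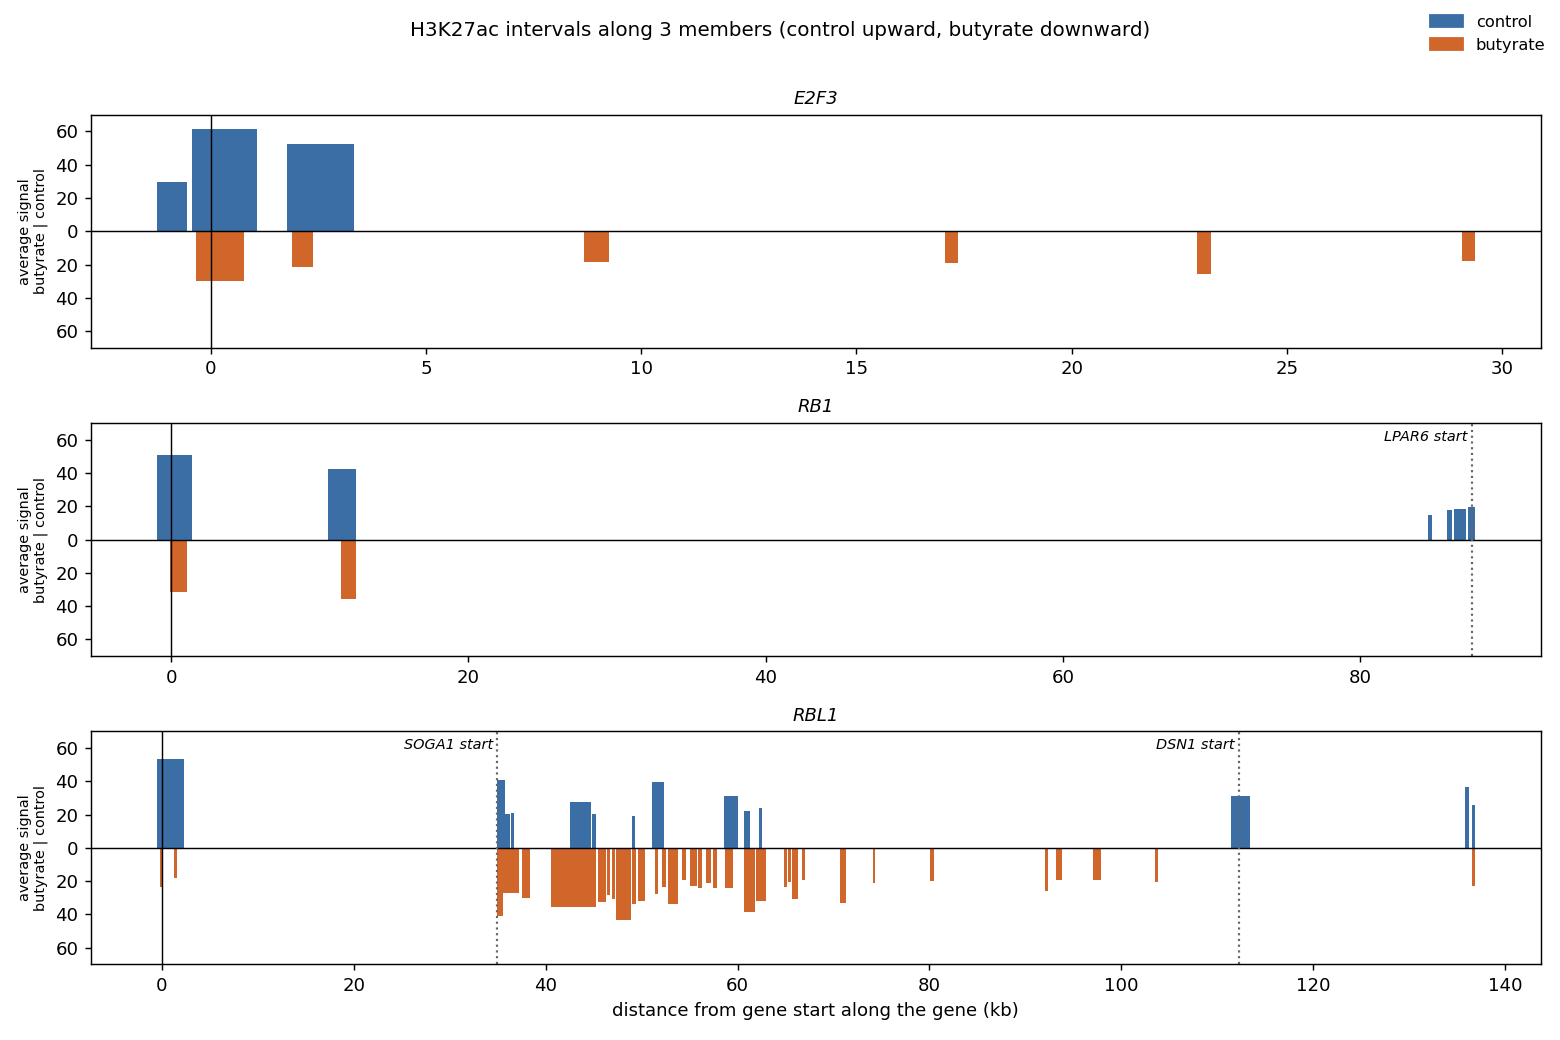
H3K27ac intervals along E2F3, RB1 and RBL1, with distance from the start in kb on the horizontal axis and average signal on the vertical axis (control upward, butyrate downward; intervals shorter than 300 bp are drawn at that width). E2F3 has 4 intervals with butyrate alone, RB1 has 4 in the control alone beside the LPAR6 start, and every body interval listed for RBL1 lies beyond the SOGA1 start at 34980 bp.

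The body of RBL1 as the table lists it takes in other genes. Its span reached 136797 bp from the start and held the starts of SOGA1 at 34980 bp and DSN1 at 112269 bp, both on the same strand, which were named after their values were seen. In the RefSeq annotation of the newer build ARS-UCD2.0 neither gene overlaps RBL1, and TLDC2 and SAMHD1 lie between SOGA1 and RBL1. Over the listed span there were 13 H3K27ac intervals (10851 bp) in the control and 33 (24264 bp) with butyrate, of which 2 were in the control only and 23 with butyrate only. All of them lay from the SOGA1 start onward, and 0 lay before it. The butyrate-only signals ranged from 19.3 to 43.2. Ended at the SOGA1 start, the RBL1 body held a single interval of any target, a CTCF interval of the control at 22589 bp with 18.3.

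The other body intervals were few. RBL2 had a CTCF interval at 45385 bp with 30.4 in the control and 29.6 with butyrate, and an H3K4me1 interval at 13353 bp in the control only (26.1). RB1 had a control-only CTCF interval at 20363 bp (22.5) and a control-only H3K4me1 interval at 103515 bp (30.5). At E2F1 the H3K4me1 intervals past the promoter, 27.5 and 30.8 in the control, were joined with butyrate into 1 interval of 943 bp with 36.4. H3K27me3 was found inside none of the 9 genes in either library. Upstream of E2F3 it was 5.83 in the control and 5.17 with butyrate, and upstream of RBL1 it was 7.41 and 7.17.

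Genes that act with the family were read in the same way from 3 lists that were chosen by role with earlier results known. The first holds partners of the E2Fs and subunits of the MuvB complex, which joins RBL2 and E2F4 in the DREAM repressor, and 11 of its 13 genes had a start. All 11 had H3K27ac in the control, against 47.3% of all promoters, and 2 of them had it in the control only, against 30.4%. Of the other 9, 5 were at least 2-fold lower as deposited, against 33.7%, and 0 were relative to the median promoter, against 1.61%. Their median ratio was -1.08 as deposited and -0.30 relative to the median promoter. TFDP1 and TFDP2 encode the DP proteins with which E2F1 to E2F5 bind DNA. H3K27ac at TFDP1 was 24.2 in the control and 26.9 with butyrate, a ratio of 0.15 that was 0.93 above the median promoter. At TFDP2 it was 51.1 and 19.2, a ratio of -1.42 as deposited and -0.64 relative to the median promoter, although H3K4me3 there was 81.5 and 115 (ratio 0.49). The DP partners thus stood on opposite sides of the median promoter, TFDP1 with a weak signal like that of E2F1.

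E2F6, a repressor that works without pocket proteins, had H3K27ac of 38.0 and 19.7, a ratio of -0.95 as deposited and -0.17 relative to the median promoter. It was 1 of 2 promoters of its list with H3K27me3 in the control, at 9.45 in the control and 6.95 with butyrate. MYBL2 and FOXM1, which take over the MuvB complex in dividing cells, had H3K27ac ratios of -0.95 and -0.88, which were -0.17 and -0.10 relative to the median promoter. Their H3K4me3 ratios were 0.04 and 0.35. LIN9, a MuvB subunit, had no start and no value.

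The list of G1 inputs holds the cyclins, kinases and inhibitors that set the phosphorylation of the pocket proteins, and 17 of its 18 genes had a start. Of 16 with H3K27ac in the control, 5 were in the control only, a share near the 30.4% over all promoters with H3K27ac in the control. Of the other 11, 3 were at least 2-fold lower as deposited, against 33.7%, and 0 relative to the median promoter, against 1.61%, with a median ratio of -0.35 that was 0.43 above the median promoter. CCND1, the cyclin whose kinases first phosphorylate RB1, had H3K27ac of 44.4 in the control and 67.6 with butyrate. This ratio of 0.61 was 1.38 above the median promoter. On that relative scale 1 of 11 genes in this list was at least 2-fold higher, against 4.58% of all promoters marked in both. In the lists of partners and of targets 0 of 9 and 0 of 18 were. CCNE1, whose cyclin completes the phosphorylation, had 22.5 in the control and no interval with butyrate. CDKN1A, the inhibitor p21 that butyrate is known to induce in many cell lines, had 37.2 and 17.6, a ratio of -1.08 as deposited and -0.31 relative to the median promoter. Its H3K4me3, which was low for a promoter, was 23.6 and 32.5 (ratio 0.46).

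The list of E2F targets holds genes of nucleotide supply, replication and repair, and 43 of its 48 genes had a start. Of 40 with H3K27ac in the control, 22 (55%) had no interval with butyrate, while the share over all promoters was 30.4% and over the family 12.5%. Of the 18 marked in both, 10 were at least 2-fold lower as deposited, against 33.7% of all promoters marked in both, and 0 relative to the median promoter, against 1.61%, with a median ratio of -1.03 as deposited and -0.25 relative to the median promoter. PCNA, the sliding clamp of replication, went from 50.7 in the control to no interval, whereas CCNA2, the S-phase cyclin, had 32.3 and 25.3 (ratio -0.35, or 0.42 above the median promoter). The median control signal was 45.8 for the targets, 39.5 for the family and 46.6 for all promoters. H3K4me3 was present in both libraries at 40 of the 43 targets, against 56.5% of all promoters, with a median ratio of -0.16. It was in the control only at 0 of 40, against 0.413% of all promoters with H3K4me3 in the control. No gene of the 3 lists was 2-fold higher or lower in H3K4me3, against 3.94% and 0.0963% of all promoters marked in both. MCM2, a subunit of the replicative helicase, had no start and no value. The lists share MYBL2, CCNE1 and CCNE2, and the difference between targets and family was not tested.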

How the data were processed

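Rumen epithelial primary cells of 1 calf gave 11 libraries, grouped by their labels. The submitters' processing notes name Trim Galore 0.4.1 for trimming, BWA for alignment, MACS2 for peak calling and UMD3.1 as the build. The authors deposited 1 table of called intervals with a peak and an average signal, annotated with the genes around each. The scaling of this signal between libraries and whether coordinates start at 0 or 1 are not given in the sources used here. Totals stated elsewhere in the study were left out, so no precision from depth is stated. Signal is known only where an interval was called.

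Gene starts were derived from interval summits and their annotated distances, with at least 2 listings of which 90% agreed. 69 symbols lay on more than 1 chromosome. Body intervals were those annotated inside a gene that did not reach its promoter, and intervals of the 2 libraries were shared when they overlapped by at least 1 bp. Log2 ratios had no pseudocount and 2-fold was the limit for counts. With 1 library per target and condition no test was made. The members, the gene lists and the named genes were chosen with earlier results of these data known: all members were described, and outside the family 12 genes taken by role and those sharing an interval with a member start. All 10 member symbols are in RefSeq (ARS-UCD2.0), whose coordinates, of another build, were used only for the order and overlap of genes. Sequence was not analysed here. The code was tested on simulated data. Alternatives were windows of 1 and 5 kb, a 25% quantile of peak signal as a minimum, equal numbers of intervals, peak signal, a pseudocount of 1, other scalings, the mean over intervals, limits of 1.5-fold and 3-fold and an overlap of 50%. Analyses used Python 3.11.15, numpy 2.4.6, pandas 2.3.3 and matplotlib 3.10.9.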

Additional observations from a re-analysis of the deposited data

How the results depend on the processing

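Of 187 member ratios recomputed under the alternatives, 18 moved by more than 1.5-fold, 17 of them H3K27ac ratios, and 21 had another sign or were 0, all of these at ratios under 2-fold as deposited. Centring and scaling take 1 constant, -0.78 or -0.88, from every H3K27ac ratio. Each constant is larger than 1.5-fold, so all 7 members marked in both libraries moved under both by construction. The other H3K27ac ratios that moved were those of E2F5, RB1 and RBL1 by peak signal. The median H3K27ac ratio of the members was -0.68 as deposited, 0.10 when centred on the median promoter and 0.20 when scaled on the top 10% of promoters. The 2 members at least 2-fold lower became 4 by peak signal and 4 at a limit of 1.5-fold, 1 with the mean of the intervals, and 0 at a limit of 3-fold, when centred and when scaled on the top 10%. For H3K27me3, the 1 member marked with butyrate only became 0 with windows of 1 kb and of 5 kb, and with 5 kb 1 member was marked in both libraries, with a ratio of 0.10. CTCF reached 5 members in both libraries with 5 kb in place of 3. Control-only H3K27ac intervals in gene bodies were 6 in 2 members, and 2 in 1 member when only intervals past the 25% quantile of their library by peak signal were kept, those of RBL1. With the RBL1 body ended at the SOGA1 start, an alternative chosen after seeing the data, 1 member had control-only intervals and the butyrate-only intervals were 6 in place of 29. The other 206 counts and medians of the family stayed within 1.5-fold. Some of these could not change: in windows of 1 and 2 kb, 0 members had H3K27me3 in both libraries, which fixed its 2-fold counts. The planned search for E2F motifs was not run. No paired analysis was possible because each group had 1 library. Depth could not be used to judge a missing call, and no spread between cultures or animals is known.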
